A study of Zea mays subsp. mays with 2 samples.

Results

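The outermost 5 Mb of the 10 maize chromosomes were examined for how densely their transcribed loci lie, how abundant they are and how they divide between roots and shoots. A listed locus belonged to an end when its midpoint lay at most 5 Mb from position 1, which gave the first end of a chromosome, or at most 5 Mb from the largest locus end on that chromosome, which gave the last end. This rule uses position alone. It put 3615 of the 37398 listed loci into 20 ends, and the other 33783 loci form the rest of the chromosomes. Both organs came from seedlings of the inbred line B73, harvested 14 days after germination, and each was sequenced as 1 strand-specific library of polyadenylated RNA: roots in 1 library and shoots in the other. Levels are in FPKM, fragments per kilobase of transcript and scaled by the mapped total, as the authors deposited them. All 3615 members are above 1 FPKM in at least 1 library, because the table lists only such loci, so density here means density of listed loci and not of genes.

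Maize chromosomes carry most of their genes and most of their meiotic crossovers towards the ends of the arms, while repeat-rich heterochromatin surrounds the centromeres. The tips themselves end in telomere repeats, beside which some arms carry long arrays of other repeats. Where a gene lies along an arm is therefore tied to how close its neighbours are. The loci carry assembler identifiers without gene names, and 0 of the 3615 identifiers matched the maize gene table at hand, so no role can be given to any of them and they are identified by position on B73 RefGen_v2. With 1 library per organ no difference between roots and shoots has a replicate check. No test was made between the ends and the rest either, and the counts of ends and chromosomes below describe these loci only. Roots and shoots are whole organs, in which fewer cells of a type and less RNA per cell cannot be told apart.

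Transcribed loci lay more than 2 times as densely in the chromosome ends as elsewhere. The ends held 36.2 loci per Mb, against 17.3 loci per Mb in the rest, a ratio of 2.09. They made up 4.86% of the covered length and carried 9.67% of the loci. Both ends together were denser than the rest on 10 of 10 chromosomes, and 19 of the 20 single ends were denser than the rest of their own chromosome. The ends were far more uneven than the rest: densities ran between 18.0 and 62.0 loci per Mb over the 20 ends, with a median of 34.0 and an SD of 10.5, against 15.1 to 18.5 over the rest of the 10 chromosomes, with an SD of 1.22. The rest of a chromosome is averaged over a much longer stretch than an end, which by itself evens out its density.

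The densest end was the first end of chromosome 5, with 310 loci, or 62.0 per Mb against 18.0 per Mb in the rest of that chromosome. It was followed by the last end of chromosome 10 at 46.6, the first end of chromosome 2 at 46.4 and the last end of chromosome 4 at 46.0 loci per Mb. The sparsest ends were the first end of chromosome 9, with 90 loci at 18.0 per Mb against 17.3 in its rest, and the first end of chromosome 6, with 91 loci at 18.2 per Mb against 18.3 in its rest. The first end of chromosome 6 was the single end below the rest of its chromosome. These 2 chromosomes therefore had ends of unlike density, since their last ends stood at 41.8 and 39.6 loci per Mb. Across chromosomes the last end was the denser on 6 and the first end on 4.

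**Figure D1:**
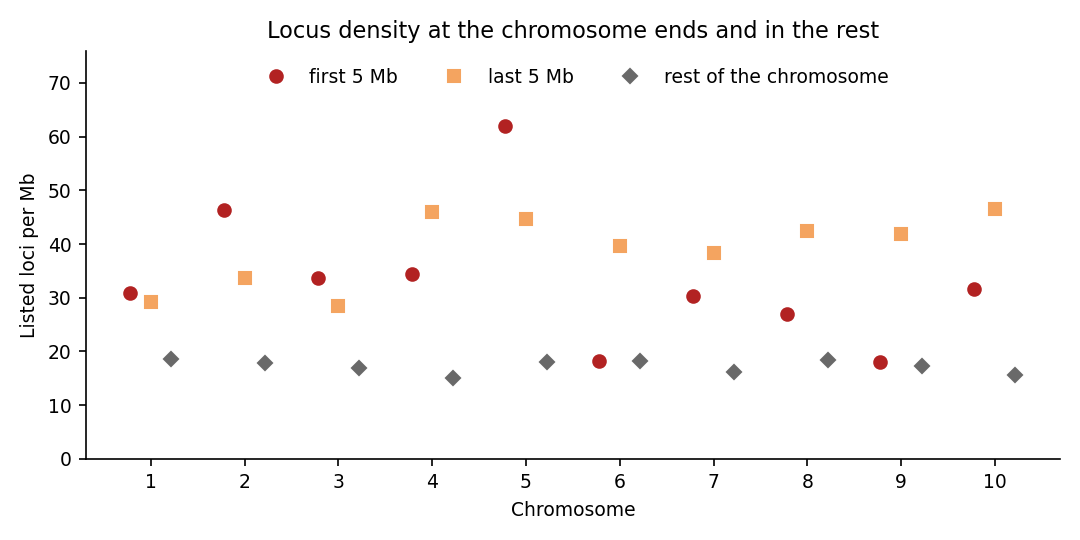
Listed loci per Mb (y axis) on each chromosome (x axis), with circles for the first 5 Mb, squares for the last 5 Mb and diamonds for the rest of the chromosome. The ends spread between 18.0 and 62.0 loci per Mb, while the rest of every chromosome lies between 15.1 and 18.5.

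Successive loci were correspondingly closer. The median distance between the midpoints of neighbouring loci, strands pooled, was 9931 bp within the ends and 25356 bp within the rest. By single ends it was shortest at the first end of chromosome 5, with 6183 bp, and longest at the first end of chromosome 9, with 40885 bp. That first end of chromosome 9 was the single end whose median spacing exceeded that of its own chromosome's rest, which was 25031 bp, although its density was close to that of the rest. The first end of chromosome 6 was sparse in another way, with a median spacing of 13193 bp but the widest empty stretch of any end, 443122 bp between neighbouring midpoints. Very close neighbours made up no larger share of the spacings: 7.51% at the ends were 1 kb or less, against 7.95% in the rest. This is a share of spacings and not a count per Mb, and the ends hold more spacings per Mb. Loci that overlapped a listed locus of the opposite strand made up 14.6% of end loci (527 of 3615), against 9.03% of loci in the rest (3050 of 33783). Listed loci are denser and somewhat longer at the ends, and the part of density and span in this share was not tested. The plus strand carried 50.8% of the end loci and 50.4% of the others.

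Density was not highest at the very tip. The outermost 1 Mb of the 20 ends held 21.8 loci per Mb, and the next 4 intervals of 1 Mb held 39.2, 40.3, 39.8 and 39.8 loci per Mb. The outermost 1 Mb had fewer loci than the second at 16 of 20 ends, and was the lowest of the 5 intervals at 15. It still exceeded the rest of its chromosome at 15 of 20 ends. At the first end of chromosome 10 it held 6 loci, against 41 in the second Mb, and at the first end of chromosome 5 it held 40 against 72. The last end of chromosome 2 went the other way, with 36 loci in its outermost Mb and 23 in the second. The outermost Mb of the 10 first ends held 190 loci and that of the 10 last ends 246, but the 2 kinds of end are not measured alike: a last end begins by definition at a locus, whereas a first end begins at position 1.

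**Figure D2:**
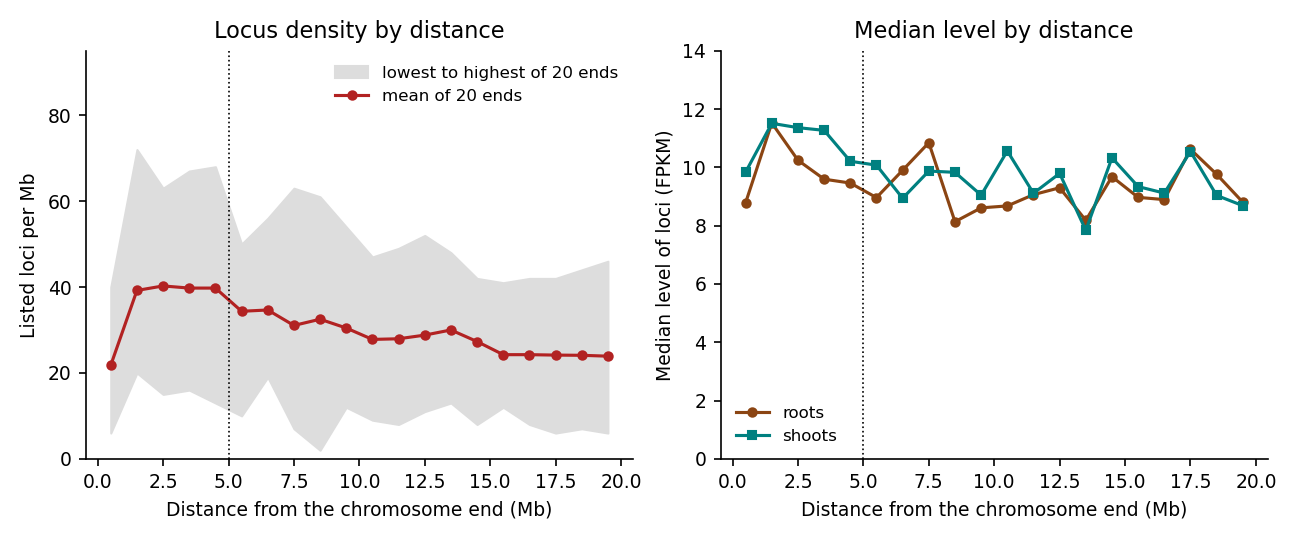
Left, listed loci per Mb (y axis) by distance from the chromosome end in 1 Mb intervals (x axis), as the mean of 20 ends with the range from the lowest to the highest end shaded. Right, the median level of the loci in each interval, in FPKM, in roots (circles) and shoots (squares); the dotted line marks 5 Mb, and density rises from 21.8 in the first interval to 39.2 in the second before it declines inwards.

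Mean density over the 20 ends was lower just outside the 5 Mb boundary than just inside it. The interval from 4 to 5 Mb, just inside it, held 39.8 loci per Mb with medians of 9.46 FPKM in roots and 10.2 FPKM in shoots. The interval from 5 to 6 Mb, just outside it, held 34.4 loci per Mb with medians of 8.96 FPKM in roots and 10.1 FPKM in shoots. The median density over single ends differed less, with 40.5 loci per Mb inside and 38 outside. The summed FPKM per Mb was 1578 just inside and 1054 just outside in roots, and 1932 and 1455 in shoots. The inside interval includes a locus of chromosome 6 at 6547 FPKM in shoots, 4.21 Mb from its end. At 8 to 9 Mb the sums were 1199 in roots and 1775 in shoots. The whole strip from 5 to 10 Mb held 32.6 loci per Mb, and at 19 to 20 Mb the mean was 23.9, still above the 17.3 of everything beyond the ends.

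The outermost locus of each end was transcribed in both organs in most cases. Of the 20 outermost loci, 17 reached 1 FPKM in both libraries, where 84.5% of end loci and 81.0% of all listed loci did. This is near the background. The 20 loci had a median of 9.57 FPKM in roots and 8.89 FPKM in shoots. On chromosome 1 the first locus begins at position 8 and ends at 3809, on the plus strand, with 10.8 FPKM in roots and 23.4 FPKM in shoots. On chromosome 8 the last locus spans 147 bp, from 175773361 to 175773507, with 2.75 FPKM in roots and 1.55 FPKM in shoots. The largest distances from position 1 to an outermost midpoint were 306 kb on chromosome 10, 170 kb on chromosome 9 and 125 kb on chromosome 6. The chromosome 10 locus, on the minus strand from 300426 to 310885, had 16.7 FPKM in roots, against 41.7 FPKM in shoots.

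Of these 20 outermost loci 2 were at least 4-fold higher in roots, where 3.95% of all listed loci were, and 1 was at least 4-fold higher in shoots, where 7.55% of all were. The first locus of chromosome 8, on the minus strand from 17505 to 19257, had 229 FPKM in roots, against 11.2 FPKM in shoots. The first locus of chromosome 7, on the minus strand from 32239 to 33693, had 13.2 FPKM in roots, against 0.29 FPKM in shoots. The last locus of chromosome 1, on the minus strand from 301254351 to 301284057, had 5.13 FPKM in roots, against 23.8 FPKM in shoots. The most abundant outermost loci in roots after that of chromosome 8 were the last locus of chromosome 10, with 152 FPKM in roots and 41.7 FPKM in shoots, and the last locus of chromosome 9, with 105 FPKM in roots and 27.5 FPKM in shoots. Both lay within 4-fold.

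End loci were somewhat more abundant than other loci in both organs. The median level in roots was 9.95 FPKM at the ends, with quartiles of 2.67 and 29.9, against 8.04 FPKM in the rest, with quartiles of 2.16 and 24.3. In shoots it was 10.8 FPKM at the ends, with quartiles of 3.27 and 30.1, against 8.71 FPKM in the rest, with quartiles of 2.70 and 24.2. The ratio of ends over rest was 1.24 in roots and 1.24 in shoots, small beside the width of either distribution. The strip from 5 to 10 Mb lay between, with medians of 9.24 FPKM in roots and 9.56 FPKM in shoots. From 5 to 20 Mb the medians of 1 Mb intervals ran from 8.13 to 10.8 FPKM in roots and from 7.84 to 10.6 FPKM in shoots. Levels like those of the ends thus also occurred farther in. With both ends pooled, the median was higher than in the rest on 10 of 10 chromosomes in each organ. Loci at 100 FPKM or more made up 7.25% of end loci in roots (262 loci), against 5.90% of all loci, and 6.33% in shoots (229 loci), against 5.41% of all loci.

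Span, the genomic extent of a locus with introns included, moved with these levels. The median span was 2626 bp at the ends and 2419 bp in the rest, and 14.3% of end loci spanned 500 bp or less, against 17.0% in the rest. The strip from 5 to 10 Mb was like the ends, with a median span of 2611.5 bp and 13.9% at 500 bp or less. Within classes of like span the order held: the end median was the higher in 5 of 5 classes in roots and in 5 of 5 in shoots. In the class above 500 and up to 2000 bp it was 4.90 FPKM at the ends and 3.63 FPKM in the rest in roots, and 5.17 and 4.09 FPKM in shoots. Above 5000 bp it was 17.2 FPKM at the ends and 16.2 FPKM in the rest in roots, and 19.5 and 16.6 FPKM in shoots. Above 200 and up to 500 bp the medians in roots were nearly equal, 2.08 FPKM at the ends and 2.06 FPKM in the rest. In shoots they were 2.83 and 2.60 FPKM there.

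Single ends departed from the pooled median in both directions. In roots the highest median was that of the first end of chromosome 6, with 14.1 FPKM, and the lowest that of the first end of chromosome 9, with 5.25 FPKM. In shoots the highest was that of the last end of chromosome 5, with 13.9 FPKM, and the lowest that of the first end of chromosome 4, with 5.25 FPKM. The median was above that of the rest of the same chromosome at 17 of 20 ends in roots and at 15 of 20 in shoots. The first ends of chromosomes 4, 7 and 9 fell below it in both organs. Their medians were 5.52, 5.37 and 5.25 FPKM in roots, and 5.25, 7.80 and 5.75 FPKM in shoots. The sparse first ends of chromosomes 6 and 9 thus lay at opposite extremes of level in roots. Over the 20 ends the rank correlation between density and median level was 0.35 in roots and 0.40 in shoots. That between median span and median level was 0.55 in roots and 0.72 in shoots. These are descriptions over ends that share both libraries.

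**Figure D3:**
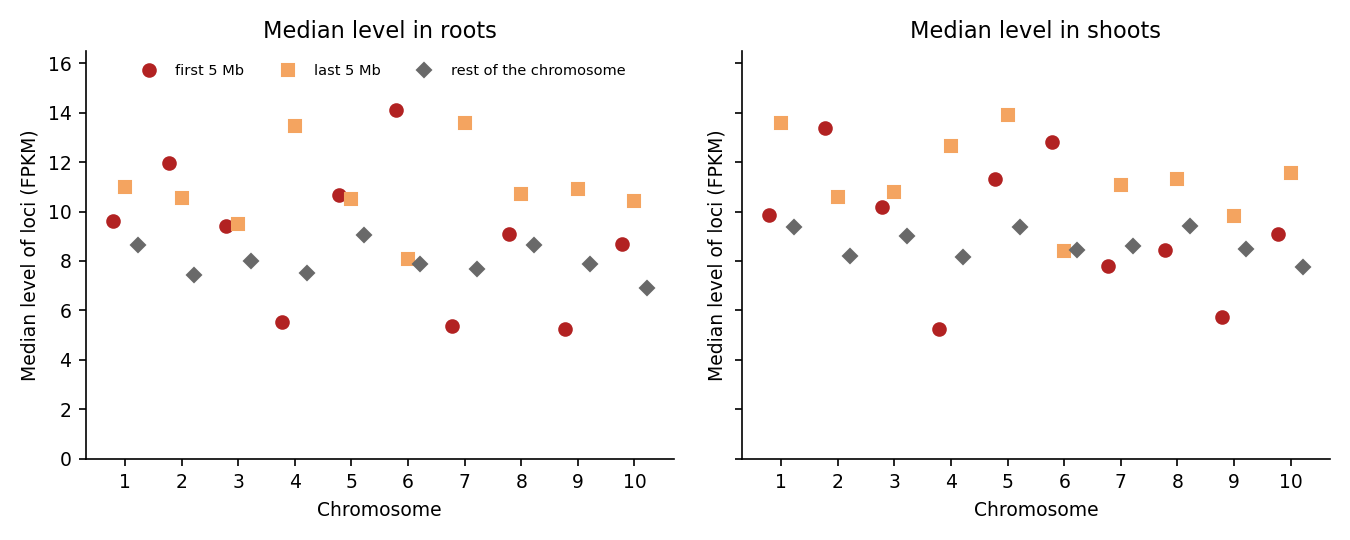
Median level of the loci in FPKM (y axis) on each chromosome (x axis), in roots on the left and shoots on the right, with circles for the first 5 Mb, squares for the last 5 Mb and diamonds for the rest. The first ends of chromosomes 4, 7 and 9 lie below the rest of their chromosomes in both organs, and most other ends lie above it.

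Because loci were both denser and slightly more abundant, the ends carried a larger share of the summed signal than of the sequence. The summed FPKM per Mb was 1251 at the ends and 541 in the rest in roots, a ratio of 2.31, and 1414 at the ends and 567 in the rest in shoots, a ratio of 2.49. The ends held 10.6% of the summed FPKM of roots and 11.3% of that of shoots. On the same length the strip from 5 to 10 Mb held 9.26% and 10.1%, at 1096 FPKM per Mb in roots and 1259 in shoots. The outermost 1 Mb alone stood at 513 FPKM per Mb in roots, below the 541 of the rest. In shoots it stood at 685, above the 567 of the rest. The highest sum was reached in shoots by the last end of chromosome 6, with 2635 FPKM per Mb, of which a single locus held 49.7%. In roots it was reached by the first end of chromosome 5, with 2256 FPKM per Mb, of which the top locus held 5.92%. The first end of chromosome 9 had the lowest sums, 534 FPKM per Mb in roots and 410 FPKM per Mb in shoots. The 10 most abundant loci over all ends held 9.78% of the end sum in roots and 15.6% in shoots.

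The most abundant locus of an end was either within 4-fold between the organs or far higher in shoots. By the sum over both libraries, 12 of the 20 top loci lay within 4-fold, 0 were called higher in roots and 8 were called higher in shoots. Over all listed loci these shares were 3.95% and 7.55%, but calls were more frequent among abundant loci. Among loci above 100 FPKM in an organ, 5.57% at the ends and 8.40% in the rest were higher in roots, and 18.2% at the ends and 17.6% in the rest were higher in shoots. The top loci were picked by their summed level, so the count is a description. The highest level of any end locus in shoots was that of a 1326 bp locus on chromosome 6, plus strand, from 164900927 to 164902252. This locus stood at 6.64 FPKM in roots, against 6547 FPKM in shoots. The highest level in roots was that of a 1961 bp locus on chromosome 4, plus strand, from 1075603 to 1077563, with 2882 FPKM in roots and 1332 FPKM in shoots. It alone held 38.5% of the root sum of that end.

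The other top loci that were higher in shoots stood at 0.63 to 14.7 FPKM in roots. The top locus of the first end of chromosome 3, on the plus strand from 1406857 to 1407041, had 14.7 FPKM in roots, against 2581 FPKM in shoots and held 40.4% of the shoot sum of its end. It spans 185 bp, and FPKM of so short a locus depends strongly on the assumed fragment length. The top locus of the last end of chromosome 10, on the plus strand from 147890562 to 147891878, had 2.88 FPKM in roots, against 2044 FPKM in shoots. That of the first end of chromosome 10, on the minus strand from 4165442 to 4166593, had 0.63 FPKM in roots, against 1053 FPKM in shoots. That of the last end of chromosome 2, on the minus strand from 236795476 to 236797369, had 1.32 FPKM in roots, against 1482 FPKM in shoots. It lies 208 kb from the end of the chromosome. On chromosomes 5 and 8 the top loci of the first ends were at 4.59 and 1.96 FPKM in roots; in shoots they were at 1281 and 1097 FPKM.

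Among the top loci that lay within 4-fold, that of the last end of chromosome 8, on the plus strand from 173117675 to 173120578, had 1243 FPKM in roots, against 404 FPKM in shoots. That of the last end of chromosome 4, on the plus strand from 236879357 to 236883718, had 1174 FPKM in roots, against 766 FPKM in shoots. The top loci of both ends of chromosome 1 were less abundant, at 415 and 557 FPKM in roots and 203 and 525 FPKM in shoots at the first and the last end. That of the last end of chromosome 3 was the lowest of all in the sum after that of the first end of chromosome 1, with 349 FPKM in roots and 388 FPKM in shoots.

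**Figure D4:**
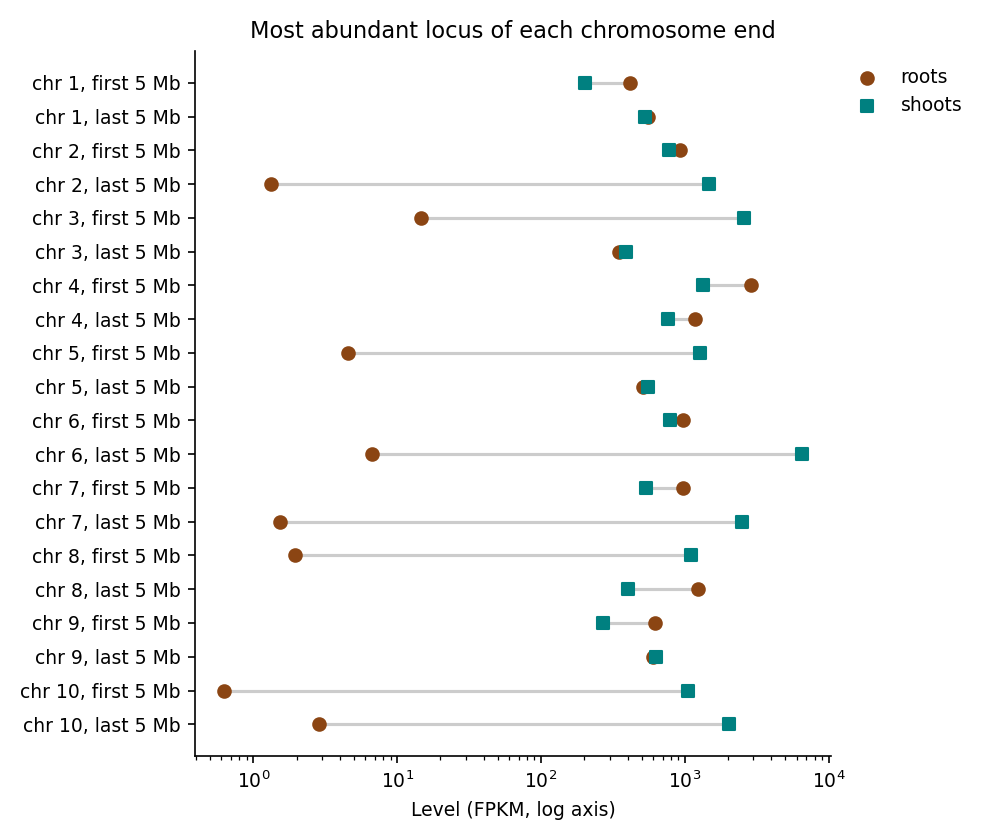
Level in FPKM on a log axis (x axis) of the most abundant locus of each chromosome end (rows), in roots (circles) and shoots (squares), joined by a line. In 8 rows the root level lies far below the shoot level, and no row shows the reverse by 4-fold or more.

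The log2 of roots over shoots was computed per locus after adding 1 FPKM to both levels, and a locus was called higher in an organ at a ratio of at least 4-fold with at least 1 FPKM there. The added FPKM understates the change of low loci. At the ends 132 loci (3.65%) were higher in roots, while 3.95% of all listed loci were. There were 278 end loci (7.69%) higher in shoots, while 7.55% of all listed loci were. Both shares are near the background. The rest of the chromosomes stood at 3.98% higher in roots and 7.53% higher in shoots. The median log2 ratio was 0.08 at the ends, with quartiles of -0.46 and 0.52, against 0.05 in the rest, with quartiles of -0.58 and 0.54. The end share was above that of the rest on 4 of 10 chromosomes for roots and on 5 of 10 for shoots, with both ends pooled.

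Detection in both organs was more frequent at the ends than in the pooled rest. At 1 FPKM or more in both libraries stood 84.5% of end loci (3055 of 3615), against 80.6% of the rest (27220 of 33783), and the end share was the higher on 10 of 10 chromosomes. The strip from 5 to 10 Mb stood at 82.8%, and 1 Mb intervals from 5 to 20 Mb ran from 80.2% to 86.7%. The levels of end loci were also higher, and with only loci at 5 FPKM or more in an organ the shares were 94.3% and 93.6%. At the ends 24 loci with signal in roots (0.66%) were listed at 0 in shoots, against 0.75% of loci in the rest. A further 47 with signal in shoots (1.30%) were listed at 0 in roots, against 1.63% in the rest. The most abundant of those at 0 in shoots, a 102 bp locus on the plus strand of chromosome 9, positions 152418352 to 152418453, had 125 FPKM in roots.

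The single ends differed more in these shares than the rest of the chromosomes did, with 90 to 310 loci in each end. The share higher in roots ran between 0.68% at the last end of chromosome 1, where 1 of 146 loci was called, and 8.89% at the first end of chromosome 9, with 8 of 90. The share higher in shoots ran between 4.17% at the last end of chromosome 7, with 8 of 192, and 12.3% at the last end of chromosome 1, with 18 of 146. Over the rest of the 10 chromosomes these shares ran between 3.22% and 4.81% for roots and between 6.27% and 8.09% for shoots. The rest of a chromosome holds 2182 to 5396 loci. An end holds far fewer, so its share moves by a large step with each called locus.

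The last end of chromosome 1 was thus the lowest in root calls and the highest in shoot calls. The first ends of chromosomes 4 and 9 were high in both directions, with 7.56% and 8.89% higher in roots and 11.0% and 12.2% higher in shoots. They also had the lowest shares of loci detected in both organs, 73.8% and 71.1%, and low median levels. First ends carried the larger share on 8 of 10 chromosomes for roots and on 8 of 10 for shoots. Pooled, 4.57% of the 1662 loci of first ends and 2.87% of the 1953 loci of last ends were higher in roots. For shoots these shares were 8.36% and 7.12%. The median level was 8.79 FPKM at first ends and 10.9 FPKM at last ends in roots, and 9.73 and 11.7 FPKM in shoots, and the part of level in the difference between first and last ends was not tested.

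**Figure D5:**
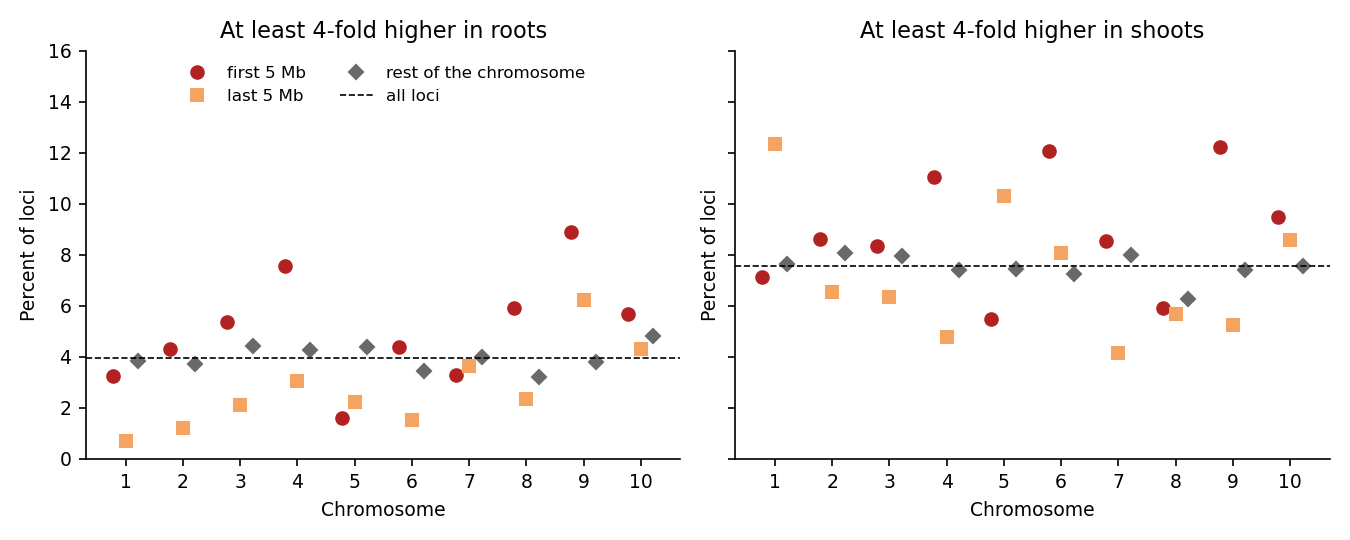
Percent of loci at least 4-fold higher in roots (left) or in shoots (right) on each chromosome (x axis), with circles for the first 5 Mb, squares for the last 5 Mb, diamonds for the rest and a dashed line for all listed loci. The ends scatter on both sides of the dashed lines at 3.95% and 7.55%, more widely than the rest of the chromosomes.

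The 2 most strongly root-biased end loci lay on the same chromosome. Among end loci whose higher organ reached 10 FPKM, and with 1 FPKM added, M_XLOC_004588 had the largest ratio, with 1042 FPKM in roots and 3.27 FPKM in shoots, which gives a log2 ratio of 7.93. It lies on chromosome 10, minus strand, from 1087065 to 1088682. M_XLOC_004586 followed, on the same strand from 893976 to 895713, with 337 FPKM in roots and 1.19 FPKM in shoots, which gives a log2 ratio of 7.27. Between them lie 3 listed loci. The nearest to the first, on the plus strand from 1084103 to 1085734, had 277 FPKM in roots, against 2.42 FPKM in shoots. Its neighbour on the minus strand from 1078718 to 1083743 had 52.5 FPKM in roots, against 21.7 FPKM in shoots, and the remaining locus had 1.17 FPKM in roots, against 0.46 FPKM in shoots. The spans of the 3 biased loci were 1618, 1738 and 1632 bp, and sharing of reads among like copies was not analysed here.

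The largest shoot ratio on this scale was that of P_XLOC_024453, on chromosome 7, plus strand, from 176215220 to 176216920 and 335 kb from the end. It had 1.53 FPKM in roots, against 2510 FPKM in shoots, which gives a log2 ratio of -9.95, and was also the most abundant locus of its end. M_XLOC_019980, on chromosome 6, minus strand, from 1340171 to 1341142, had 0.84 FPKM in roots, against 1619.5 FPKM in shoots, which gives a log2 ratio of -9.78. Its next 2 neighbours on that strand, from 1343660 to 1344909 and from 1373159 to 1374087, were at 0.91 and 0.54 FPKM in roots; in shoots they were at 437 and 747 FPKM. These 3 loci of 929 to 1250 bp lay side by side with no other listed locus between them, in the sparse first end of chromosome 6.

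Strong differences were not rarer at the ends than elsewhere. At least 32-fold differences were found at 9 end loci higher in roots, 0.25% of end loci as of all loci, and at 47 higher in shoots, 1.30% of end loci against 1.05% of all. At least 256-fold differences were found at 0 end loci higher in roots, of 1 in all. They were found at 13 end loci higher in shoots, of 78 in all, which is 0.36% of end loci against 0.21% of all.

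Some biased end loci followed each other. Stretches of at least 3 loci biased the same way, whose successive midpoints lay at most 100 kb apart, were marked after the values were seen. There were 30 at 15 of the 20 ends, 5 higher in roots and 25 higher in shoots, with at most 5 called loci in a stretch. The root stretches held 18 of the 132 root calls (13.6%), against 11.7% of root calls in the rest. The shoot stretches held 89 of the 278 shoot calls (32.0%), against 14.6% in the rest. Listed loci are 2.09 times as dense at the ends, so a fixed distance joins more of them there, and the part of density in these shares was not tested. With same-strand loci within 1 kb joined, 26 stretches were left, 3 higher in roots and 23 in shoots. They held 8.04% of root calls at the ends and 8.45% in the rest, and 31.0% and 8.52% of shoot calls. As listed, the root stretch with the most called loci held 5 and no other. All lay on the plus strand of the last end of chromosome 9, between 152756458 and 152808424. They had 5.52 to 39.2 FPKM in roots, against at most 6.24 FPKM in shoots, where 2 were listed at 0. Of these 5, the loci from 152759915 to 152761564 and from 152761699 to 152763250 lie within 1 kb of each other. With joining no root stretch at the ends held more than 3 called loci, which this pair alone does not account for. At the first end of chromosome 8, 3 loci between 4348465 and 4361142 had 16.3, 242 and 297 FPKM in roots, against at most 3.45 FPKM in shoots. The 2 of them on the plus strand lie within 1 kb of each other. With joining they merge, and fewer than 3 called loci are left there.

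Shoot stretches without any other listed locus inside included one of 5 loci on the minus strand of chromosome 4, between 3453139 and 3477831. Of these, 1 lies inside its neighbour on the same strand and another ends within 1 kb of that neighbour, so that with joining they count as 3. The 5 loci had at most 6.63 FPKM in roots, against 5.48 to 54.4 FPKM in shoots. Nearby on the same end, 4 loci between 3256234 and 3292922 had 0.07 to 65.2 FPKM in roots, against 13.4 to 472 FPKM in shoots. At the first end of chromosome 8, 4 loci between 1744712 and 1891615 had 1.40 to 7.45 FPKM in roots, against 18.1 to 1097 FPKM in shoots. Most shoot stretches were interrupted: at the last end of chromosome 6, between 165248453 and 165489392, 5 of 16 loci were higher in shoots. Those 5 had 0.09 to 7.70 FPKM in roots, against 4.34 to 86.0 FPKM in shoots.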

How the data were processed

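The authors deposited 1 table of FPKM values with 1 column for roots and 1 for shoots; the submitters' processing notes name TopHat, Cufflinks and Cuffdiff, with no version or setting given in the sources used here. The build is B73 RefGen_v2, per the file headers. The depth is unknown, so no counting interval is given. Chromosome, strand, start and end were read from the table, distances were taken from the midpoint of a locus, and the end of a chromosome was set at its largest locus end. Ratios used a pseudocount of 1 FPKM, calls a 4-fold difference and 1 FPKM. The members and the measures were chosen with earlier results of these data known. By identifier, the 2 end loci with the largest ratio in each direction at 10 FPKM or more were named; by position, the outermost and the most abundant locus of each end. Other loci were named after their values were seen. The scripts were tested on simulated tables with planted positions and ratios. Alternatives covered window width, joining of loci, low values, pseudocount, scaling, fold and detection level. Python 3.11.15, pandas 2.3.3, NumPy 2.4.6, SciPy 1.17.1 and matplotlib 3.10.9 were used. No sequence is printed, since no genome of this build was used here.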

Additional observations from a re-analysis of the deposited data

How the results depend on the processing

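Of 53 values under other settings, 41 stayed within 1 SD over the 20 ends, or within the exact 95% binomial interval for percentages, and 12 did not. For level, span and the log2 ratio that SD is wide enough to include no difference between ends and rest. The binomial interval treats neighbouring loci as independent, which was not tested. The count is therefore no measure of stability. Density, spacing, span and level kept the order of ends and rest in every setting run for them. With windows of 2.5 and 10 Mb the ratio of densities was 1.83 and 2.09, and leaving out each chromosome in turn, an addition after seeing the data, gave 1.99 to 2.16. With only loci at 5 FPKM or more, the level ratio was 1.08 in roots and 1.13 in shoots. The share higher in roots was 4.57% at the ends and 5.37% in the rest with that filter. It was 6.47% and 7.32% with a pseudocount of 0.1 FPKM, 1.41% and 1.60% with 5 FPKM, and 12.1% and 13.0% at 2-fold. The share higher in shoots was 9.93% at the ends and 9.88% in the rest with the filter. It was 11.7% and 12.8% with 0.1 FPKM, 4.15% and 3.55% with 5 FPKM, 15.8% and 17.3% at 2-fold, and 6.82% and 7.58% with a 2.5 Mb window. The share detected in both organs was 94.3% with the filter, 86.1% with loci joined and 56.8% at 5 FPKM. The order of ends and rest turned in 6 values, all of them shares of calls or the median log2 ratio, where the reported difference was small. Joining loci, added after seeing the data, left 26 of 30 stretches. No paired analysis was possible because each organ has 1 library, and no library could be left out.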

Other observations

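Among the 1 Mb intervals within 20 Mb of an end, the 2 with the largest shares of root-biased loci lay between 6 and 8 Mb. In the strip from 6 to 8 Mb, 6.32% of 1314 loci were at least 4-fold higher in roots, against 3.65% in the outermost 5 Mb, and 5.94% were higher in shoots, against 7.69% there. The root share of the strip was above the 3.95% of all loci at 15 of 20 ends. The last end of chromosome 7 contributed 12 of its 83 root calls, and without that end the share was 5.73%. The strip was singled out after its values were seen, and no test was made.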
